A study of Mus musculus with 10 samples.

Results

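The 38 genes described here encode the ligands, receptors, Smad proteins, secreted modulators and direct targets of bone morphogenetic protein (BMP) and transforming growth factor beta (TGF-beta) signalling, and were taken by symbol from the 38720 gene symbols of the count table. All 38 were in the table, and 36 passed a filter on low counts (filterByExpr, minimum count 10). RNA was sequenced from microdissected tail buds, the posterior growth zone, of E12.5 mouse embryos, in a study of the Lin28/let-7 pathway in caudal axis elongation. The Lin28a-induced embryos (n = 4) carried TRE-Lin28a, RLSL-rtTA and FoxD1-Cre and were treated with doxycycline. The no-Cre embryos (n = 3) carried TRE-Lin28a and RLSL-rtTA without Cre and were also treated with doxycycline. The wild-type embryos (n = 3) have no allele or doxycycline named in their labels. rtTA is a transcription factor that needs doxycycline to activate a TRE promoter, and in this model Cre expression follows Foxd1. The labels do not say in which tail bud cells the transgene was active, which embryos were littermates, or whether a library is 1 embryo or a pool, so p-values measure the spread between these libraries.

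BMP and TGF-beta ligands bind pairs of type I and type II receptor kinases. BMP receptors phosphorylate Smad1, Smad5 and Smad9, TGF-beta and activin receptors phosphorylate other Smads, and both kinds enter the nucleus with Smad4. Secreted proteins such as Noggin, Gremlin and Follistatin bind ligands, Smad6 and Smad7 inhibit the receptors, and the Id and Msx genes are direct BMP targets. In the vertebrate tail, BMP signalling is known for its part in ventral and posterior mesoderm.

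Lin28a blocks the maturation of let-7 microRNAs, so the let-7 seed and its few matches in these genes are given first. The mature strands of the let-7 family and miR-98 in RefSeq (GRCm38.p6) share the seed at bases 2 to 8, in capitals in these 3 of the 9, shown because their remaining bases differ.
let-7a: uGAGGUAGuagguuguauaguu
let-7g: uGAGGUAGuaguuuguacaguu
miR-98: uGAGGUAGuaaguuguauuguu
A match to the whole seed (CTACCTC) was found in the longest annotated 3′ UTR (GENCODE M21, GRCm38) of 2 of the 38 genes, Gdf6 and Tgfbr3. Gdf6 has 2 sites, at bases 756 and 1934 of 2061, and Tgfbr3 has 1, at base 2672 of 3069, shown with the match in capitals.
Gdf6, site 1: gagaaaccacaaggcCTACCTCt
Gdf6, site 2: tttttttgaaactgtCTACCTCa
Tgfbr3: ctttttgtactgtaaCTACCTCa
Of 13579 tested genes with a 3′ UTR of at least 30 bases, 1462 (10.8%) held such a match, a larger share than the 2 of 38 here. The median 3′ UTR length was 1649 bases in the 38 genes and 1185 bases in those tested genes. A match describes the letters only.

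Library totals ran from 21762668 to 25316537 counts in wild-type and from 29300166 to 39517946 counts in transgenic libraries. No wild-type library had over 1000 counts of Xist, which Lin28a-induced replicate 5 and no-Cre replicate 7 had. Lin28a, the induced gene, had 605 to 750.3 CPM (a gene's count relative to the TMM-scaled total of its library) in Lin28a-induced libraries, 2.64 to 5.03 CPM in no-Cre libraries and 4.45 to 6.16 CPM in wild-type libraries. The tail bud marker T averaged 382 CPM in Lin28a-induced and 256 CPM in wild-type libraries. The wild-type libraries stood apart: mitochondrially encoded genes took 1.85% to 2.69% of their counts, against 0.446% to 0.69% in the transgenic libraries. Wild-type replicate 2 had a summed tail bud marker level of 1115 CPM, against 2032 and 2075 CPM in the other wild-type libraries. Any batch between the wild-type and transgenic embryos cannot be told apart from the transgenes and doxycycline. In whole tail buds, fewer cells of a type and less RNA per cell also cannot be told apart.

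Per kilobase of exon, the BMP targets Id3 and Id1 and the transducer Smad5 were the most abundant of these genes in no-Cre tail buds, at mean levels of 62.4, 58.3 and 49.4 RPKM (CPM per kilobase). The receptor Bmpr1a (42.7 RPKM), the shared transducer Smad4 (38.2 RPKM), the ligand Bmp7 (36.2 RPKM) and the secreted modulator Twsg1 (33.3 RPKM) came next. In all, 9 genes had a mean of at least 10 RPKM in every group, and 5 stayed under 1 RPKM in every group. Gdf5, a joint-forming ligand, had 0 counts in every Lin28a-induced library, at most 1 count in a no-Cre library and at most 4 in a wild-type library. Inhba, the activin A subunit, had 0 to 4 counts in Lin28a-induced libraries, 0 to 13 in no-Cre libraries and 0 to 4 in wild-type libraries. Neither was tested.

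**Figure D1:**
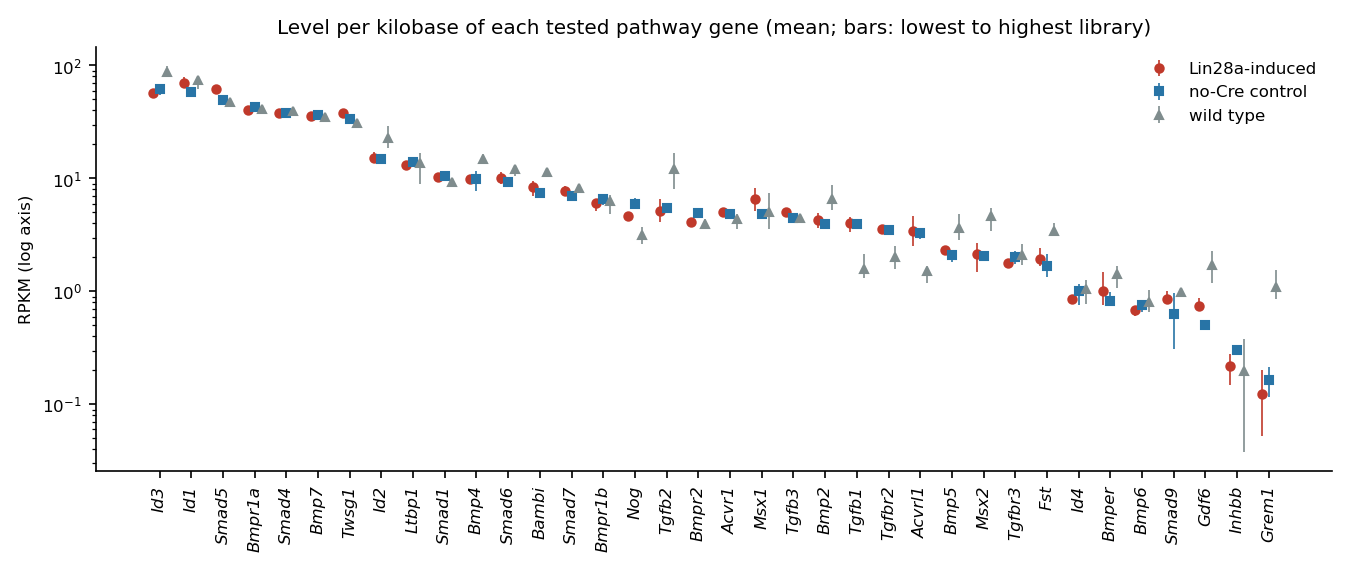
Mean RPKM (log axis) of the 36 tested genes in Lin28a-induced (circles), no-Cre (squares) and wild-type (triangles) tail buds, with bars from the lowest to the highest library. Id3, Id1 and Smad5 lie at the top of the no-Cre order and Grem1 at the bottom, where wild type lies above both transgenic groups.

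The comparison of Lin28a-induced with no-Cre tail buds asks what FoxD1-Cre together with the induction of Lin28a changed. No group carried Cre without the Lin28a transgene, so Cre and Lin28a cannot be told apart. Of the 36 tested genes, 1 was higher and 0 were lower at an adjusted p under 0.05 (edgeR quasi-likelihood test, Benjamini-Hochberg adjustment over 16340 genes). Among all tested genes 1.76% were higher and 1.15% lower, so 1 call among 36 lies near the background. The median log2 fold change of the 36 genes was 0.04, beside -0.0008 over all tested genes. At an unadjusted p under 0.05 by edgeR, 5 were higher and 2 lower. The largest p among them, 0.0392 for Smad7, ranked 2300 of the 16340 genes, so many other genes also had such a p. DESeq2 called 1 of the 36 genes higher and 1 lower, beside 484 higher and 456 lower of 13886 genes.

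The gene that rose was Smad5 (chr13:56703010-56742377, plus strand, GRCm38), which carries the BMP signal from receptor to nucleus. It had 446, 454, 476 and 459.5 CPM in Lin28a-induced libraries, against 364, 361 and 375 CPM in no-Cre libraries. Every Lin28a-induced library lay above every no-Cre library, a difference of 0.32 ± 0.04 (log2, SE; 1.25-fold; adjusted p = 0.00162). Smad5 had no let-7 seed match in its 3′ UTR, and shares 1.02% of its 32-base words with other annotated genes, among them Gm27301, which overlaps its exons by 100 bases. The call held in each fit that left out 1 library (largest adjusted p = 0.0254). Replicate 5 of the Lin28a-induced group and replicate 7 of the no-Cre group had over 1000 Xist counts, and without these 2 libraries the difference was 0.31 but the adjusted p was 0.0884.

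The next 4 genes by p did not pass the test. Twsg1, a secreted BMP-binding protein, had 198, 190.4, 196 and 195 CPM in Lin28a-induced libraries, against 167, 169.5 and 178 CPM in no-Cre libraries (log2 0.19 ± 0.06, SE, adjusted p = 0.104). Id1, a BMP target that inhibits helix-loop-helix factors, had 83.4, 74.1, 91.8 and 75.9 CPM in Lin28a-induced libraries, against 64.1, 66.3 and 72.5 CPM in no-Cre libraries (log2 0.26 ± 0.10, SE, adjusted p = 0.193). These 2 genes had no overlap between the groups, with the Lin28a-induced libraries above. How many of all tested genes lack overlap was not counted for any comparison here, so a lack of overlap only describes the values. Bmpr2, the type II BMP receptor, had 71.6, 79.0, 72.7 and 75.3 CPM in Lin28a-induced libraries, against 83.3, 83.8 and 99.4 CPM in no-Cre libraries (log2 -0.25 ± 0.07, SE, adjusted p = 0.0959). Noggin (Nog), a BMP antagonist made by the notochord among other sites, had 8.58, 8.04, 7.31 and 7.57 CPM in Lin28a-induced libraries, against 9.78, 9.17 and 11.5 CPM in no-Cre libraries (log2 -0.36 ± 0.13, SE, adjusted p = 0.169). For Bmpr2 and Nog the Lin28a-induced libraries lay below all no-Cre libraries. Notochord and floor plate markers other than Nog and Chrd (Noto, Shh, Foxa2 and Foxa1) were also summed. Their sums were 32.9 to 39.3 CPM in Lin28a-induced and 44.1 to 51.9 CPM in no-Cre libraries. Of the 6 markers on the list, with Nog and Chrd, 0 passed in this comparison and 6 gave a negative log2 value. The part of these markers in the Nog values was not tested. When only these 2 groups entered the fit, Twsg1, Id1, Bmpr2 and Nog passed edgeR, with adjusted p = 0.00772, 0.0458, 0.0221 and 0.0367. Without wild-type replicate 2, Twsg1, Id1 and Bmpr2 passed edgeR, with adjusted p = 0.00923, 0.0333 and 0.0323.

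The other 31 tested genes gave log2 values between -0.46 (Inhbb, an activin subunit) and 0.55 (Gdf6). Inhbb also had no overlap, with the Lin28a-induced libraries below, at an adjusted p of 0.679 by edgeR. Gdf6, a BMP-type ligand with the 2 let-7 matches shown above, had 2.47, 2.47, 3.10 and 2.44 CPM in Lin28a-induced libraries, against 1.62, 1.79 and 1.99 CPM in no-Cre libraries. Its groups did not overlap, but the difference of 0.55 ± 0.22 (SE) did not pass the test (adjusted p = 0.232). Tgfbr3, a TGF-beta co-receptor and the other gene with a match, gave a log2 value of -0.16 ± 0.14 (SE, adjusted p = 0.646), with overlapping groups. By role, 0 of 6 BMP and GDF ligands, 0 of 5 BMP receptors, 1 of 6 Smads, 0 of 5 secreted modulators, 0 of 6 Id and Msx targets and 0 of 7 TGF-beta and activin genes passed, and the pseudoreceptor Bambi did not.

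**Figure D2:**
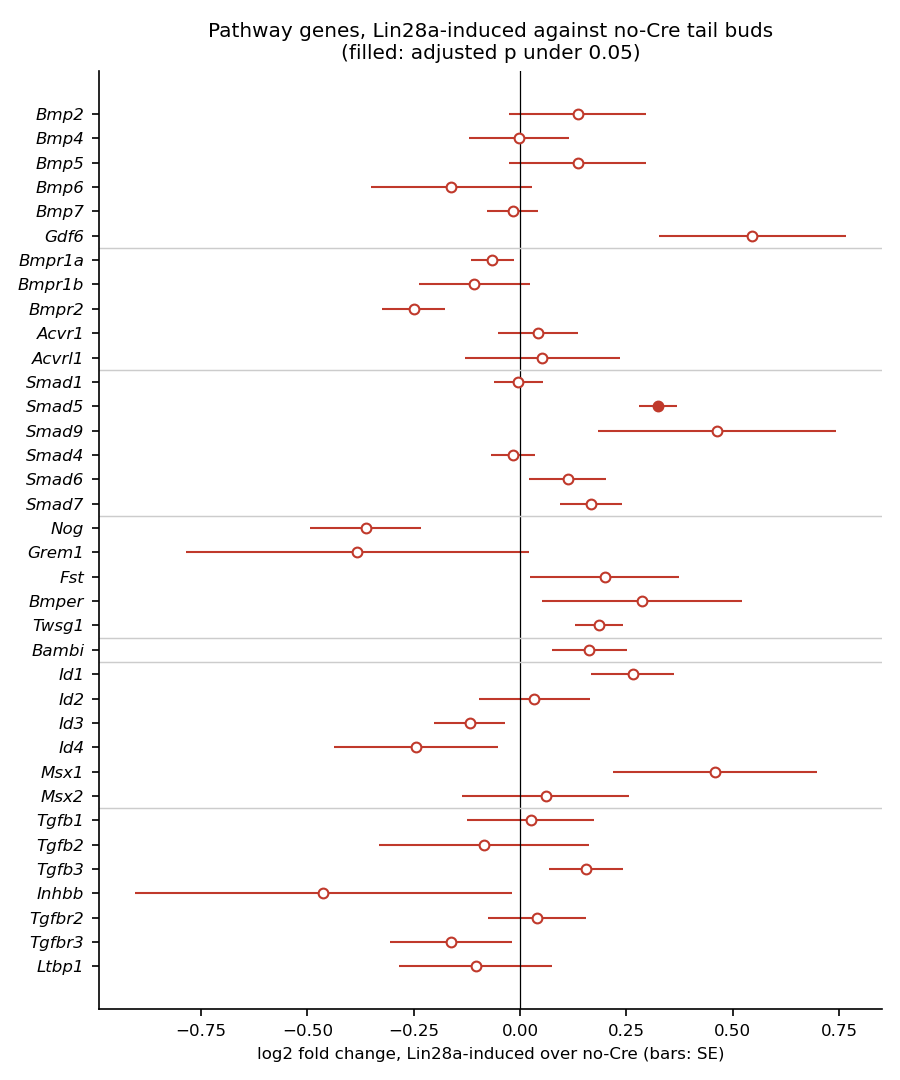
Log2 fold change of Lin28a-induced over no-Cre tail buds for the 36 tested genes, grouped by role, with bars of 1 SE and filled points for an adjusted p under 0.05. Smad5 at 0.32 is the filled point, and the open points run from -0.46 to 0.55.

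Among 99 further genes of these pathways, 83 were tested and 2 (2.41%) were higher and 1 (1.20%) lower in Lin28a-induced than in no-Cre tail buds, near the 1.76% and 1.15% of all tested genes. Tgfbr1, the type I TGF-beta receptor, averaged 349 ± 14.95 CPM in Lin28a-induced libraries and 302 ± 3.51 CPM in no-Cre libraries (SD, n = 4 and 3; log2 0.21, edgeR adjusted p = 0.0313). Cdkn1a, a cell cycle inhibitor that responds to TGF-beta and also to p53, averaged 37.0 ± 3.98 CPM in Lin28a-induced libraries and 17.0 ± 2.16 CPM in no-Cre libraries (log2 1.12, edgeR adjusted p = 9.23e-05). Fbn1, fibrillin-1 of the matrix that holds latent TGF-beta, averaged 22.1 ± 2.66 CPM in Lin28a-induced libraries and 38.2 ± 3.12 CPM in no-Cre libraries (log2 -0.79, edgeR adjusted p = 0.00875). The lists of other BMP and GDF ligands (11 tested), other Smads and intracellular regulators (17 tested) and other BMP response genes (14 tested) had 0 calls.

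The transgenic groups were also set against wild type, and these comparisons share the wild-type libraries. In Lin28a-induced against wild-type tail buds, 7 of the 36 genes (19.4%) were higher and 12 (33.3%) lower, beside 24.3% higher and 25.0% lower over all tested genes. In no-Cre against wild-type tail buds, 6 (16.7%) were higher and 15 (41.7%) lower, beside 21.0% and 21.4%. The median log2 fold change of the 36 genes was -0.08 in Lin28a-induced against wild-type tail buds (-0.02 over all genes) and -0.06 in no-Cre against wild-type tail buds (-0.02 over all genes). Bmp2, Bmp4, Bmp5, Gdf6, Smad6, Grem1, Fst, Bambi, Id2, Id3, Msx2 and Tgfb2 were lower and Acvrl1, Smad1, Nog, Tgfb1 and Tgfbr2 higher in each comparison.

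Of the 6 tested BMP and GDF ligands, Bmp2, Bmp4, Bmp5 and Gdf6 were lower in each transgenic group than in wild type, and Bmp6 and Bmp7 did not pass. Gdf6 had 6.003, 4.18 and 7.99 CPM in wild-type libraries, above each transgenic library. Its log2 fold change was -1.21 ± 0.21 in Lin28a-induced (adjusted p = 0.000316) and -1.75 ± 0.23 in no-Cre tail buds (SE, adjusted p = 5.59e-05). Bmp2, Bmp4 and Bmp5 gave log2 values of -0.61, -0.59 and -0.66 in Lin28a-induced and -0.74, -0.58 and -0.80 in no-Cre tail buds. Wild-type replicate 2 was the highest library for Bmp2 (31.2 CPM, against 20.4 and 18.7 CPM in the other wild-type libraries) and for Bmp5 (19.6 CPM, against 11.4 and 13.3 CPM). Without it, Bmp2 gave -0.35 in Lin28a-induced and -0.48 in no-Cre tail buds, and Bmp5 gave -0.40 in Lin28a-induced tail buds, each with an adjusted p under 0.05 by edgeR.

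Of the 5 BMP receptors, Acvrl1, known for its role in endothelial cells, was higher in each transgenic group. It had 10.8, 13.3, 14.4 and 19.9 CPM in Lin28a-induced libraries and 15.4, 12.3 and 14.5 CPM in no-Cre libraries, against 5.09, 7.18 and 7.12 CPM in wild-type libraries. No transgenic library reached down to wild type, and the log2 values were 1.18 ± 0.20 in Lin28a-induced (adjusted p = 0.000402) and 1.13 ± 0.21 in no-Cre tail buds (SE, adjusted p = 0.00108). Bmpr2 was higher in no-Cre (log2 0.33, adjusted p = 0.00575) and gave 0.07 in Lin28a-induced tail buds, which did not pass. Bmpr1a, Bmpr1b and Acvr1 did not pass in either comparison.

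Among the Smads, Smad5 had 352, 357 and 349 CPM in wild-type libraries. It was higher in Lin28a-induced tail buds by 0.38 ± 0.04 (log2, SE, adjusted p = 1.39e-05), and its value in no-Cre tail buds, 0.06 ± 0.05, did not pass. Smad1, a partner of Smad5, was higher in each transgenic group by 0.16 and 0.17 (log2), with adjusted p = 0.0334 and 0.0445 by edgeR. The inhibitory Smad6 was lower in each (log2 -0.26 in Lin28a-induced and -0.37 in no-Cre), Smad7 was lower in no-Cre (-0.24), and Smad4 and Smad9 did not pass. With 1 library left out, Smad1 lost its call in Lin28a-induced tail buds without Lin28a-induced replicate 2, 3 or 4, no-Cre replicate 6 or wild-type replicate 1 or 2 (adjusted p up to 0.11), and in no-Cre tail buds without any library but wild-type replicate 3 (up to 0.118). Smad6 lost its call in Lin28a-induced tail buds without Lin28a-induced replicate 2, 3 or 5 or wild-type replicate 2 or 3 (up to 0.0961), and Smad7 in no-Cre tail buds without no-Cre replicate 6, 7 or 8 (up to 0.0882).

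Of the 5 secreted modulators, 2 were higher and 2 lower in Lin28a-induced tail buds, and 1 was higher and 3 lower in no-Cre tail buds. Grem1, a BMP antagonist, had 0.429, 0.581, 0.22 and 0.839 CPM in Lin28a-induced libraries and 0.678, 0.894 and 0.48 CPM in no-Cre libraries, against 3.70, 6.37 and 3.58 CPM in wild-type libraries. Every wild-type library was above every transgenic library, and Grem1 was lower by 3.10 ± 0.36 (log2, SE, adjusted p = 1.19e-05) in Lin28a-induced and 2.72 ± 0.38 (adjusted p = 9.73e-05) in no-Cre tail buds. The values of Grem1 rest on few counts per library. Follistatin (Fst), which binds activins and BMPs, had 8.94, 7.69, 7.78 and 11.2 CPM in Lin28a-induced libraries and 9.88, 7.15 and 6.21 CPM in no-Cre libraries, against 18.6, 14.7 and 14.4 CPM in wild-type libraries. It was lower in each, by 0.83 ± 0.17 and 1.03 ± 0.19 (log2, SE, adjusted p = 0.00136 and 0.000767). Noggin went the other way: it had 5.21, 4.50 and 6.34 CPM in wild-type libraries and was higher in Lin28a-induced tail buds by 0.56 ± 0.14 (log2, SE, adjusted p = 0.00445) and in no-Cre tail buds by 0.92 ± 0.15 (adjusted p = 0.000251). Bmper, an extracellular BMP-binding protein, was lower in no-Cre tail buds (log2 -0.77; adjusted p up to 0.0896 without no-Cre replicate 6 or 8 or wild-type replicate 1 or 2) and Twsg1 higher in Lin28a-induced tail buds (log2 0.30, adjusted p = 0.000676).

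Bambi, a kinase-less pseudoreceptor that dampens the pathway and is itself induced by it, had 48.7, 42.0, 42.7 and 35.6 CPM in Lin28a-induced libraries and 36.4, 37.5 and 39.2 CPM in no-Cre libraries, against 54.6, 62.9 and 56.9 CPM in wild-type libraries. It was lower by 0.46 ± 0.09 (log2, SE, adjusted p = 0.000717) in Lin28a-induced and 0.63 ± 0.09 (adjusted p = 0.000184) in no-Cre tail buds. Of the 6 Id and Msx targets, 3 were lower in Lin28a-induced tail buds (Id2, Id3 and Msx2) and 4 in no-Cre tail buds (Id1, Id2, Id3 and Msx2). The call of Id1 was lost without no-Cre replicate 6 or 7 or wild-type replicate 1 or 3 (adjusted p up to 0.0692). Id3 had 101, 97.0, 112 and 102 CPM in Lin28a-induced libraries and 98.5, 116 and 121 CPM in no-Cre libraries, against 148, 144 and 176 CPM in wild-type libraries, and was lower by 0.60 ± 0.08 (log2, SE, adjusted p = 6.51e-05) and 0.48 ± 0.09 (adjusted p = 0.000904). Msx2, a homeodomain factor, had 6.57, 4.91, 8.78 and 8.004 CPM in Lin28a-induced libraries and 7.33, 6.70 and 6.28 CPM in no-Cre libraries, against 16.2, 18.01 and 11.3 CPM in wild-type libraries. Msx2 was lower by 1.103 ± 0.19 (log2, SE, adjusted p = 0.000418) and 1.16 ± 0.21 (adjusted p = 0.00074). For Bambi, Id3 and Msx2 wild type was the highest group with no overlap. Without wild-type replicate 2, Id2 in Lin28a-induced tail buds gave -0.39 on the log2 scale, against -0.58 with it. In that fit Msx1 was higher in Lin28a-induced tail buds (log2 0.758, adjusted p = 0.00278 by edgeR). Id1 and Id4 were lower there (log2 -0.205 and -0.482, adjusted p = 0.0459 and 0.0457 by edgeR). With all libraries Msx1, Id1 and Id4 gave 0.38, -0.09 and -0.30 and did not pass. Id2 shares 1.52% of its 32-base words with Gm6175.

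Of the TGF-beta and activin genes, Tgfb1, a TGF-beta ligand, and Tgfbr2, the type II TGF-beta receptor, were higher in each transgenic group, and the ligand Tgfb2 was lower. Tgfb1 had 19.7, 16.8, 21.5 and 22.9 CPM in Lin28a-induced libraries and 20.9, 20.1 and 18.6 CPM in no-Cre libraries, against 6.64, 6.65 and 10.8 CPM in wild-type libraries. The difference was 1.34 ± 0.16 (log2, SE, adjusted p = 2.88e-05) in Lin28a-induced and 1.32 ± 0.17 (adjusted p = 7.14e-05) in no-Cre tail buds. Tgfbr2 had 28.2, 27.3, 29.8 and 31.3 CPM in Lin28a-induced libraries and 27.6, 27.3 and 30.3 CPM in no-Cre libraries, against 16.02, 12.9 and 20.6 CPM in wild-type libraries. Tgfbr2 was higher by 0.82 ± 0.12 (log2, SE, adjusted p = 0.000116) in Lin28a-induced and 0.78 ± 0.13 (adjusted p = 0.000373) in no-Cre tail buds. For both genes every transgenic library was above every wild-type library. Tgfb2 averaged 30.1 ± 5.93 CPM in Lin28a-induced and 31.99 ± 2.01 CPM in no-Cre libraries, against 69.6 ± 25.9 CPM in wild-type libraries (SD), where replicate 2 had 97.5 CPM, with log2 values of -1.21 (adjusted p = 0.00372) and -1.12 (adjusted p = 0.00979).

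**Figure D3:**
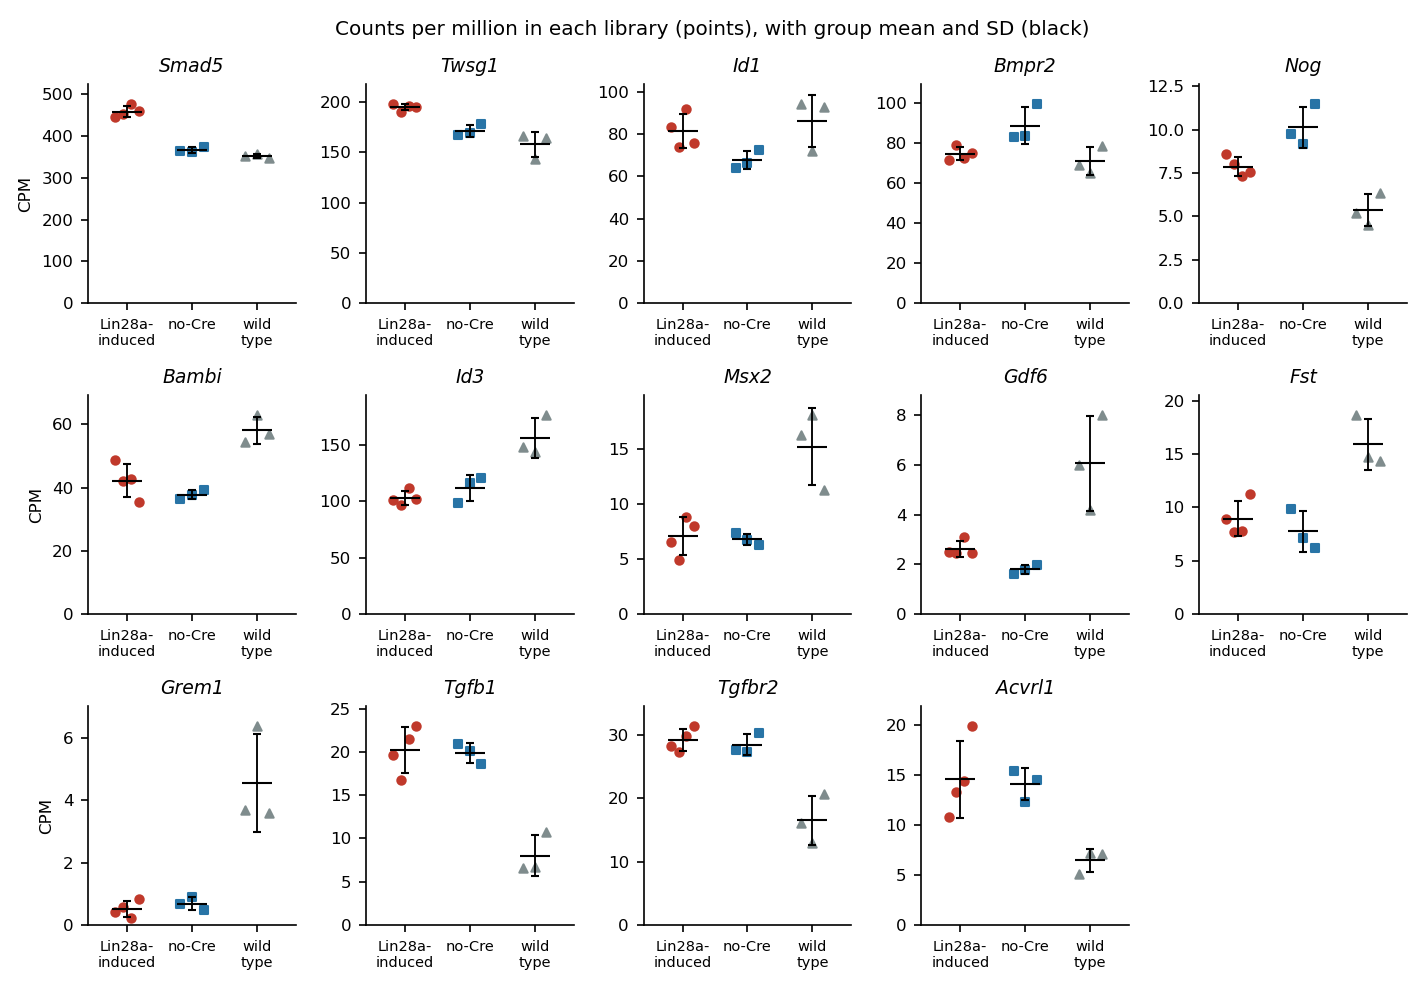
CPM of 14 genes in each library of the Lin28a-induced, no-Cre and wild-type groups, with the group mean and SD in black. Smad5 is higher in Lin28a-induced than in no-Cre libraries, while Bambi, Id3, Msx2, Gdf6, Fst and Grem1 are lower in both transgenic groups than in wild type and Tgfb1, Tgfbr2 and Acvrl1 higher.

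Of the further pathway genes, 34 of 83 (41.0%) were higher and 20 (24.1%) lower in Lin28a-induced than in wild-type tail buds, beside 24.3% and 25.0% of all tested genes. In no-Cre tail buds 30 (36.1%) were higher and 18 (21.7%) lower than in wild type, beside 21.0% and 21.4% of all tested genes. Of 11 TGF-beta response genes, 7 (63.6%) were lower and 2 higher in Lin28a-induced tail buds, and 9 (81.8%) lower and 1 higher in no-Cre tail buds. Among them, the smooth muscle gene Tagln averaged 14.1 ± 1.496 CPM in Lin28a-induced and 13.3 ± 1.22 CPM in no-Cre libraries, against 46.7 ± 13.3 CPM in wild-type libraries (SD). The collagen gene Col1a1 averaged 6.88 ± 2.58 CPM in Lin28a-induced and 6.48 ± 1.92 CPM in no-Cre libraries, against 39.7 ± 12.2 CPM in wild-type libraries (SD). Of 17 other Smads and intracellular regulators, 11 (64.7%) were higher and 1 lower in Lin28a-induced tail buds, and 9 (52.9%) higher and 1 lower in no-Cre tail buds. Of 14 other BMP response genes, 5 (35.7%) were higher and 3 (21.4%) lower in Lin28a-induced tail buds, with a median log2 value of 0.28, and 5 (35.7%) higher and 2 (14.3%) lower in no-Cre tail buds, with a median of 0.21. Among these, the transcription factor Lef1 averaged 387 ± 30.5 CPM in Lin28a-induced and 471 ± 38.4 CPM in no-Cre libraries, against 169.7 ± 51.5 CPM in wild-type libraries (SD), and the homeodomain gene Dlx3 averaged 2.51 ± 0.493 CPM in Lin28a-induced and 3.47 ± 0.753 CPM in no-Cre libraries, against 10.6 ± 1.25 CPM in wild-type libraries (SD). Lrrc32, which holds latent TGF-beta on the cell surface, averaged 2.93 CPM in Lin28a-induced and 2.16 CPM in no-Cre libraries, against 0.333 CPM in wild-type libraries.

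**Figure D4:**
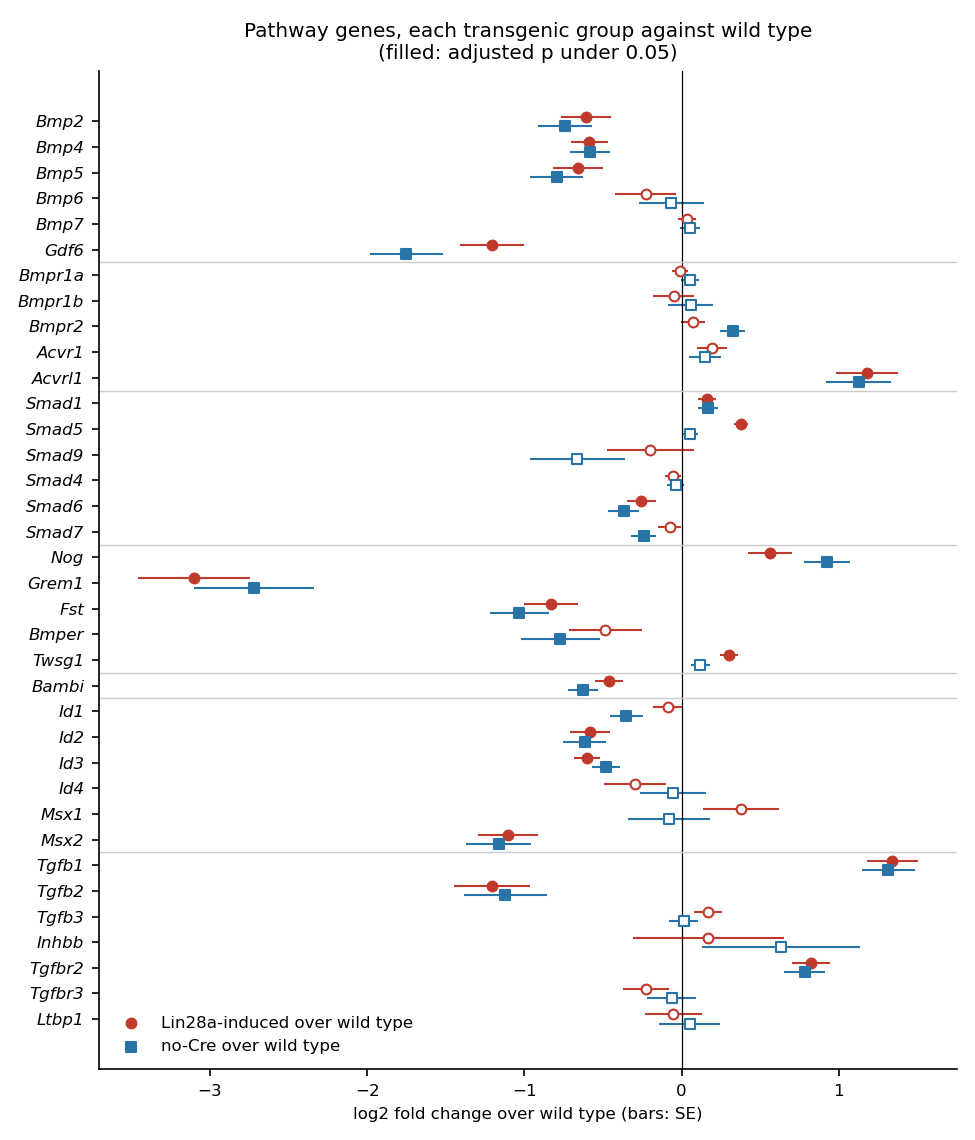
Log2 fold change over wild type of the 36 tested genes in Lin28a-induced (circles) and no-Cre (squares) tail buds, with bars of 1 SE and filled points for an adjusted p under 0.05. Grem1 lies lowest, at -3.10 and -2.72, and Tgfb1 highest, at 1.34 and 1.32; both series use the same wild-type libraries.

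Markers of other tissues moved with these differences. Summed CPM of 10 surface ectoderm markers ran from 320 to 365 in Lin28a-induced and 342 to 383 in no-Cre libraries, against 941 to 1167 in wild-type libraries, and all 10 were lower in each transgenic group. Summed CPM of 10 endothelial markers ran from 311 to 431 in Lin28a-induced and 334 to 377 in no-Cre libraries, against 74.8 to 160 in wild-type libraries, and all 10 were higher in each. Notochord and floor plate markers without Nog and Chrd summed to 32.9 to 39.3 CPM in Lin28a-induced and 44.1 to 51.9 CPM in no-Cre libraries, against 9.09 to 29.0 CPM in wild-type libraries. No marker on the surface ectoderm or endothelial list was at 0 in any library. Sums of further lists separated the transgenic groups from wild type without overlap. Gut endoderm markers summed to 182 to 216 CPM in Lin28a-induced and 197 to 221 CPM in no-Cre libraries, against 438 to 558 CPM in wild-type libraries. Neural crest markers summed to 108 to 145 CPM in Lin28a-induced and 119 to 127 CPM in no-Cre libraries, against 235 to 288 CPM in wild-type libraries. Cartilage and joint markers summed to 266 to 309 CPM in Lin28a-induced and 278 to 289 CPM in no-Cre libraries, against 377 to 504.5 CPM in wild-type libraries. The sums of these 3 lists were highest in wild type, and those of the next 4 lowest. The gut endoderm list shares Sox17 with the endothelial, Cdh1 with the surface ectoderm, and Foxa2 and Shh with the notochord and floor plate list. Gene by gene, some lists were mixed. In Lin28a-induced against wild-type tail buds, 3 of 6 gut endoderm markers were higher and 3 lower. Of 4 tested neural crest markers 2 were higher and 1 lower, and of 7 tested somite and sclerotome markers 2 were higher and 2 lower. In no-Cre tail buds these were 3 and 3, 0 and 1, and 3 and 2. Macrophage markers summed to 81.9 to 101 CPM in Lin28a-induced and 72.9 to 90.4 CPM in no-Cre libraries, against 25.8 to 61.2 CPM in wild-type libraries. Neural progenitor markers summed to 349 to 369 CPM in Lin28a-induced and 404 to 434 CPM in no-Cre libraries, against 222 to 268 CPM in wild-type libraries. Somite and sclerotome markers (475 to 637 CPM in Lin28a-induced, 523 to 771 CPM in no-Cre and 298 to 433 CPM in wild-type libraries) and tail bud progenitor markers (2129 to 2570 CPM, 2245 to 2456 CPM and 1115 to 2075 CPM in the same order of groups) were also lowest in wild type. Of the 12 tail bud progenitor markers, 3 (25.0%) were higher and 0 lower in each transgenic group, and 11 gave a positive log2 value. Over all tested genes, 24.3% were higher in Lin28a-induced and 21.0% in no-Cre tail buds. The part of these tissues in the differences from wild type was not tested. Between Lin28a-induced and no-Cre tail buds, 0 of 10 endothelial, 0 of 10 surface ectoderm and 0 of 6 notochord and floor plate markers passed. In that comparison 1 of 5 tested neural progenitor markers (Sox3) and 1 of 4 tested roof plate markers (Olig3) were lower. The neural progenitor sums just given did not overlap between these groups, and roof plate markers summed to 13.5 to 15.2 CPM in Lin28a-induced and 17.0 to 23.4 CPM in no-Cre libraries. The part of these tissues in the values of Smad5, Twsg1, Id1, Bmpr2, Nog and Gdf6 was not tested.

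**Figure D5:**
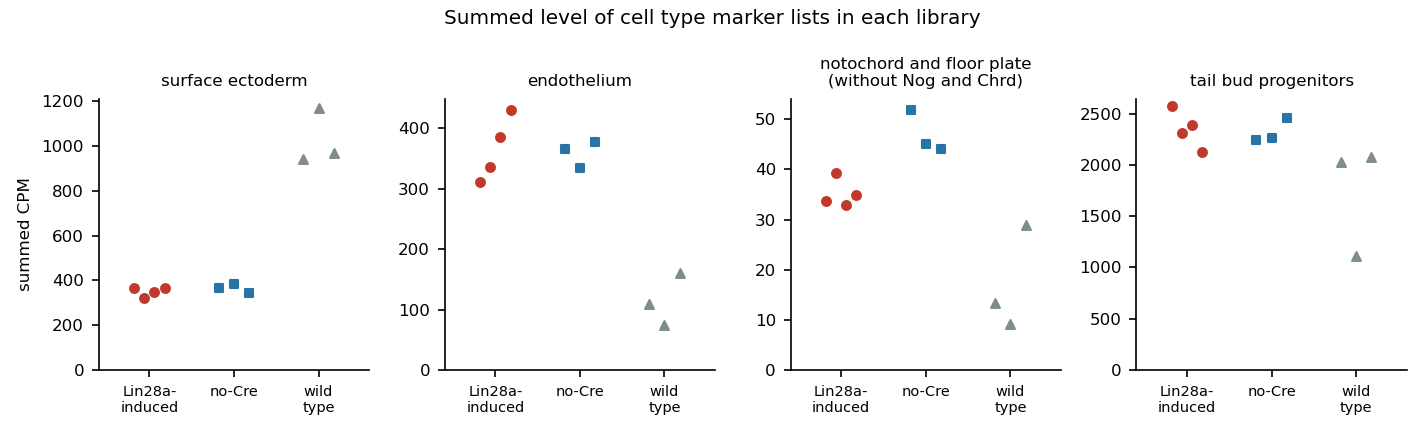
Summed CPM of 4 marker lists in each library of the Lin28a-induced, no-Cre and wild-type groups. Surface ectoderm markers are highest and endothelial markers lowest in wild type, and the tail bud sum of wild-type replicate 2 is 1115 CPM.

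The promoters of these genes were read from RefSeq windows of 300 bases around the start (GRCm38.p6), which matched 25 of the 38 genes. The GC-rich motif GGCGCC, known from BMP-responsive enhancers, which reads the same on both strands, was found in 7 of the 25 (28.0%), beside 21.2% of 11196 promoters of tested genes. The Smad box CAGAC, searched on both strands, was found in 9 of the 25 (36.0%), beside 47.9%, and the palindrome GTCTAGAC, which does not contain the box as spelled here, in 1 of the 25 (4.0%; Smad6), beside 0.241%. Windows of 3 genes lower in each transgenic group than in wild type are shown because they differ in these motifs, with the GC-rich motif and the Smad box, on either strand, in capitals.
Id2 (chr12:25096043-25096342, minus strand): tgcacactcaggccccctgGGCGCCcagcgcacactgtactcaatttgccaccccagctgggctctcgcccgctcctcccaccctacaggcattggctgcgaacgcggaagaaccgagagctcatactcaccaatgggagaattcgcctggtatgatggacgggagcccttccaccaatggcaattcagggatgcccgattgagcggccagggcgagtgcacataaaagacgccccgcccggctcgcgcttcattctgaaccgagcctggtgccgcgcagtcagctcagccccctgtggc
Id3 (chr4:136143572-136143871, plus strand): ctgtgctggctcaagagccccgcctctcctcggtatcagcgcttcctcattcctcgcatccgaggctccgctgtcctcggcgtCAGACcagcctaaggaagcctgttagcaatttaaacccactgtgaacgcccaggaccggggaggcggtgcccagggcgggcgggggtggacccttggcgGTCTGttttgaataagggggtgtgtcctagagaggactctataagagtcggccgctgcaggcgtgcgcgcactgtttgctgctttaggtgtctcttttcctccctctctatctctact
Grem1 (chr2:113758599-113758898, minus strand): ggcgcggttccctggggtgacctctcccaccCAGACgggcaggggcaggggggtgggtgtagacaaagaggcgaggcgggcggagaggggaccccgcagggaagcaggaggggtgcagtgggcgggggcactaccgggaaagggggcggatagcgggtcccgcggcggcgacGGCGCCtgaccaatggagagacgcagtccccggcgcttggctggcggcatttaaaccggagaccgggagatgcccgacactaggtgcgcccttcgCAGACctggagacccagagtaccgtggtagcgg
Id2 holds GGCGCC and no Smad box, Id3 holds the box at 2 places and no GGCGCC, and Grem1 holds both motifs. All 3 were lower in the transgenic groups.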

How the data were processed

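The authors deposited a table of raw counts, with genes in rows and libraries in columns. Per the labels' protocols, libraries were made with a directional kit and sequenced as single reads of 75 bases. Per the submitters' processing notes, STAR 2.3.1z4, featureCounts, DESeq2 and the build mm10 were used. The annotation and the strand setting of counting are not given in these sources, so reads of genes with an antisense partner over their exons (Bmp5, Gdf5, Bmpr1a and others) cannot be told apart. Genes were filtered with filterByExpr, scaled by TMM and tested with edgeR 4.0.16 (quasi-likelihood, robust, 1 coefficient per group, all 10 libraries), with Benjamini-Hochberg adjustment over 16340 genes and a threshold of 0.05. SE is the absolute log2 fold change over the square root of F. RPKM uses exon length in GENCODE M21. The members and gene lists were chosen with earlier results of these data known. Named genes are, per comparison, members past the threshold (the 10 smallest p with values per library), the 5 smallest p where fewer than 5 passed, and up to 4 genes of each further list. Gdf6, Tgfbr3, Lrrc32, Tagln, Col1a1, Lef1, Dlx3 and the markers fall under these rules, the let-7 matches or the label checks. Alternatives were DESeq2 1.42.0, RLE and upper-quartile factors, no filter, a floor of 1 CPM in 3 libraries, a non-robust spread, a fit of the compared groups alone, a replicate block, and each library left out. Leaving out the 2 libraries with over 1000 Xist counts was chosen after the data were seen. The test was checked on simulated data. R 4.3.3, Python 3.11.15, pandas 2.3.3 and matplotlib 3.10.9 were used.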

Additional observations from a re-analysis of the deposited data

Results flagged for a closer look

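The 4 Lin28a-induced libraries were checked over 38 genes, which are the pathway genes without Gdf5 (0 counts in each) and with Lin28a. Of these, 3 had a library whose gap to the others exceeded the critical value for 4 values, where chance gives about 1 in 20, or 1.9. Gdf6 had 3.10 CPM in replicate 4, against 2.44 to 2.47 CPM in the others. Smad4 had 150.1 CPM in replicate 5, against 135.9 to 137.2 CPM. Inhba had 0 CPM in replicate 4, against 0.0871 to 0.1016 CPM, at no more than 4 counts a library.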

How the results depend on the processing

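In Lin28a-induced against no-Cre tail buds, the count of higher pathway genes was 3 with only the groups compared and 0 without the 2 libraries high in Xist, and 1 to 3 with 1 library left out. The count of lower genes was 1 with DESeq2, 2 with only the groups compared and 0 to 1 with 1 library left out. The count of all genes higher was 484 with DESeq2, 912 with only the groups compared, 28 without the libraries high in Xist and 73 to 776 with 1 library left out. The count of all genes lower was 456, 879 and 12 under the same settings, and 31 to 706 with 1 library left out. Among the fits with 1 library left out, the highest counts came without wild-type replicate 2, which is in neither group compared. That library enters this comparison through the shared filter, scaling and spread, and 16705 genes were tested without it, against 16340 with it. The cause was not tested. Deviations from the group mean correlated at -0.02 and -0.10 between same-numbered libraries of the Lin28a-induced and wild-type groups. Differently numbered libraries gave -0.118 to 0.12. The labels do not say that replicate numbers pair the samples, and so few pairs cannot decide it. With a replicate block, on the numbers that both groups hold, Lin28a-induced against wild type gave 3 higher pathway genes, 1662 higher and 1934 lower genes. Of 41 called gene values, 30 stayed called in every alternative and 0 changed sign. The 11 that lost a call in at least 1 were Smad5, Smad1, Smad6, Nog, Tgfb2 and Twsg1 against wild type in Lin28a-induced tail buds, Smad1, Smad7, Bmper and Id1 in no-Cre tail buds, and Smad5 against no-Cre. Against wild type, the fit without the 2 libraries high in Xist lost Smad6 in Lin28a-induced and Smad1, Smad7 and Id1 in no-Cre tail buds. Their adjusted p by edgeR were 0.0764, 0.0848, 0.0712 and 0.0664. That fit gained Bmper in Lin28a-induced against wild-type tail buds (edgeR adjusted p = 0.0103). Of 67 uncalled values, 12 were called in at least 1 alternative and 23 changed sign, each at most 0.23 in size. Other counts of pathway genes against wild type stayed within 1.5 times. Depth limits Gdf5, Inhba, Inhbb and Grem1.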
